A study of Mus musculus with 8 samples.

Results

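The regions described here are 999 bins of 5 kb whose H3K27ac HiChIP coverage was higher in p42 than in p30 cells both without and with LPS. They were selected on these coverage values, out of 31321 bins that carried the H3K27ac peak flag and were listed in all 4 interaction lists (common peak bins). For each bin the log2 ratio of p42 to p30 coverage was taken in untreated (UT) and in LPS-treated cells and centred on its median over the common peak bins. A bin was kept as a member when both centred ratios were 0.5 or more, which is 1.41-fold.

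In HiChIP, crosslinked DNA fragments that touch in the nucleus are joined by ligation and then enriched with an antibody, here against H3K27ac, an acetylated histone mark found at active promoters and enhancers. The samples were mouse HPC-7 cells, a line of haematopoietic progenitors, transduced by retrovirus with either isoform of CEBPA fused to the oestrogen receptor domain ERT2, sorted for GFP and low in endogenous CEBPA. By the study's methods, cells with such fusions received hydroxytamoxifen a day before an experiment to bring the protein into the nucleus, and an unfused form was also made. The labels of these samples name the isoform and neither the construct nor hydroxytamoxifen, so both are taken from the methods for the line. The 4 groups were p30 and p42 cells, each UT or LPS, where LPS stands for 2 h of lipopolysaccharide at 100 ng/mL. Each group had 2 replicates, 8 libraries in all. A group without a transduced isoform was not analysed here, so a ratio cannot be assigned to a gain in p42 or a loss in p30 cells.

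CEBPA is the transcription factor that drives myeloid progenitors towards granulocytes and monocytes. Its full-length form p42 carries transactivation domains that are missing in part from p30, the shorter product left by mutations in acute myeloid leukaemia, while both keep the bZIP domain, whose basic region binds DNA and whose leucine zipper pairs the dimer. CEBP proteins bind as dimers, with themselves or with AP-1 and ATF proteins, and the partner changes the base sequence they recognise. LPS is sensed through CD14 and the Toll-like receptor TLR4 and leads to expression of cytokines, chemokines and their receptors.

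Sequence windows of members were searched for the letters of these dimers, and the windows below are shown as examples of such matches. The motif counts themselves were made over whole bins. Capitals mark TTGCNNAA (CEBP), TGTTGCAA (CEBP with AP-1), TGATGCAA (CEBP with ATF) and TGANTCA (AP-1), on either strand. The first 4 windows have 200 bases and lie in bins among the 15 members with the highest ratios: the bin with the Nfil3 start site, the Trub2 bin, the intergenic bin 57 kb from Sp3, and the bin looped to Cd53. The promoters of C3, a complement component, and Hcar2, a receptor for nicotinic acid and ketone bodies, have 250 bases before the start site and were chosen after their values were seen. All positions and sequences are from GRCm39, the assembly behind mm39, and no window overlaps an exon.
Nfil3, chr13:53139441-53139640, plus strand: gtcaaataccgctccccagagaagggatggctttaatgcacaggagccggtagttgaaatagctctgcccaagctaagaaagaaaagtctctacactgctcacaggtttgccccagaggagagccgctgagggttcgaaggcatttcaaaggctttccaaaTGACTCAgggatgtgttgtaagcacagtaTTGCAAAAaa
Trub2, chr2:29662141-29662340, plus strand: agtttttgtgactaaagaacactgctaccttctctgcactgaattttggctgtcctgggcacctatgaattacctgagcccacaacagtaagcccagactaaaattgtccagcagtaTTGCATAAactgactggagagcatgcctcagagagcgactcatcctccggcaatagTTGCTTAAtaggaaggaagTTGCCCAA
Sp3 side, chr2:72867711-72867910, plus strand: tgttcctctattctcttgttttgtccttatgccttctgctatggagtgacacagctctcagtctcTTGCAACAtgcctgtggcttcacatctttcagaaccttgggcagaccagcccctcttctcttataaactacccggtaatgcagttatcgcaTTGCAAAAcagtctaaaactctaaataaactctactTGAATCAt
Cd53 looped, chr3:106739521-106739720, plus strand: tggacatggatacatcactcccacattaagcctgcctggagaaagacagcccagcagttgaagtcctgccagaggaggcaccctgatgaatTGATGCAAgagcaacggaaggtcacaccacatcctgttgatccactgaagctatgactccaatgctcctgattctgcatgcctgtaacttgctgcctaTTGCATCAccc
C3 promoter, chr17:57535156-57535405, minus strand: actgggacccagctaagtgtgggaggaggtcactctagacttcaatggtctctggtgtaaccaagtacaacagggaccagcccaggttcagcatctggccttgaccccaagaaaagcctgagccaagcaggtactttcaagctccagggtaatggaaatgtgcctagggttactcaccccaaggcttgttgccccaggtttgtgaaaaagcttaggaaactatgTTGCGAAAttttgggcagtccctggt
Hcar2 promoter, chr5:124003563-124003812, minus strand: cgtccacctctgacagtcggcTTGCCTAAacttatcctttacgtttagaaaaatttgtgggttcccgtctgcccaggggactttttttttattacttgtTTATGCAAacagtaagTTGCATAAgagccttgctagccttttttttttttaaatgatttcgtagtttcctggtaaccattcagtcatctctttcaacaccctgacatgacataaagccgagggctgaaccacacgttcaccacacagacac

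A match is a description of the letters and not a binding site. TTGCNNAA was found in 91.4% of members (95% Wilson interval 89.5 to 93.0) and 84.7% of all common peak bins. TGTTGCAA was found in 16.4% of members (14.3 to 18.8) and 11.1% of all, and TGATGCAA in 15.6% (13.5 to 18.0) and 10.8%. A match of TTGCNNAA can share bases with either of the composite motifs. All intervals in this text cover counting error only.

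Each list pooled the libraries of a group, so the spread between replicates could not be measured and no test was made. The differences below compare these 4 lists and not the conditions, and the error given for a log2 ratio is the Poisson error of the reads. The lists modelled 17976716 contacts in p30 UT and 14503330 after LPS, against 18999991 in p42 UT and 15831583 after LPS. Mean coverage in peak bins divided by that in other bins was 3.95, 5.70, 6.38 and 4.12 in the same order, so the enrichment was higher in p42 than in p30 without LPS and lower with it. The start sites of 9 of 9 progenitor markers lay in common peak bins, and 2 of them, Lmo2 and Erg, in members, where 1.41% of all coding genes with a start site in such a bin had it. The other 7 had centred ratios from -0.10 (Gata2) to 0.35 (Kit) in UT and from -0.40 (Cd34) to 0.34 (Fli1) in LPS. The start site of Cebpa itself lay outside the members, with centred ratios of 0.22 in UT and 0.55 in LPS.

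Coverage counts the reads of a bin and sums over all cells, so that more marked cells and more mark per cell cannot be told apart. In UT 2381 common peak bins (7.6%) reached the threshold, in LPS 1631 (5.21%), and in both 999 (3.19%). The mirrored rule found 301 bins that were higher in p30 under both treatments. A further 1382 bins reached the threshold in UT alone and 632 in LPS alone, and 13 reached it in opposite directions. Over all common peak bins the ratios of both treatments correlated with r = 0.55 (Pearson) and rho = 0.46 (Spearman) across bins, which share their libraries and are not replicates.

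**Figure D1:**
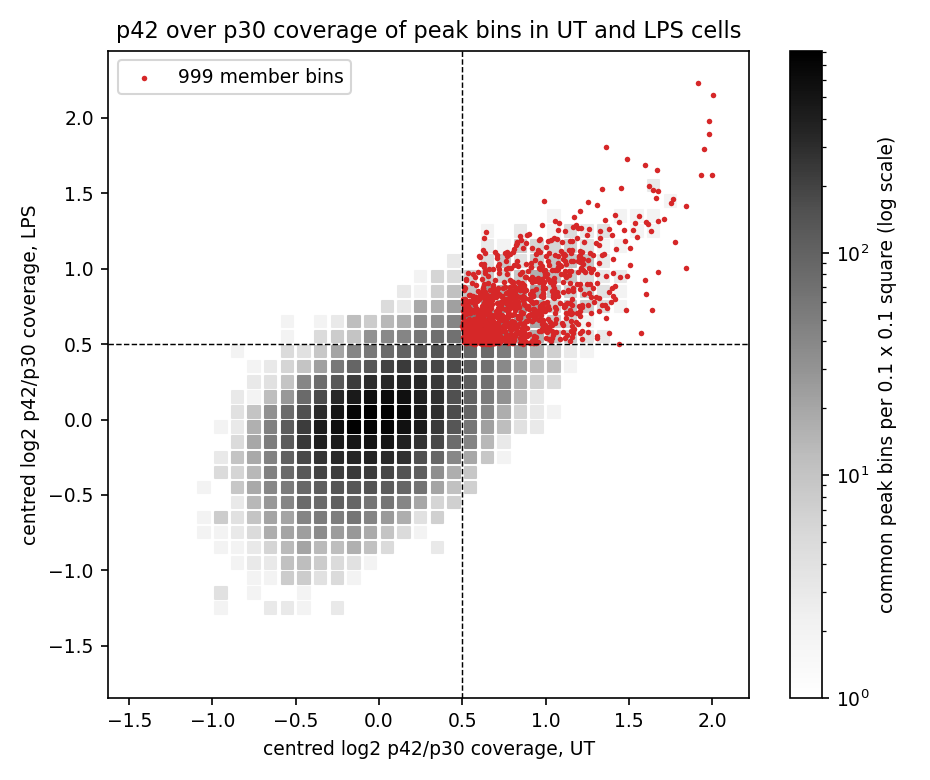
Centred log2 ratio of p42 to p30 coverage in UT (horizontal) and LPS (vertical); grey squares give the number of common peak bins on a log scale, red points are the 999 members and dashed lines the threshold of 0.5. The members fill the upper right corner by construction, and the highest of them lie near 2 on both axes.

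The median coverage of a member was 2556 reads in p30 UT and 2421 after LPS, against 5582 in p42 UT and 3606 after LPS. Over all common peak bins it was 3066, 2839, 3749 and 2466 reads in the same order. Members thus had lower coverage than the common bin in p30 and higher coverage in p42. Their centred ratio had a median of 0.79 in UT (0.50 to 2.01), which is 1.73-fold, and of 0.72 in LPS (0.50 to 2.23), which is 1.64-fold. Without centring the medians were 2.09-fold and 1.41-fold, because the median of all common peak bins was itself 0.27 in UT and -0.22 in LPS.

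The counting error of a member's ratio had a median of 0.035 in UT and 0.038 in LPS, with a highest value of 0.16 and 0.22. The counting interval lay above the threshold in both treatments for 719 members, which describes the values that chose them. Both ratios were 1 or more in 112 members and 1.5 or more in 12. Scaled by modelled contacts in place of the median, ratios moved by 0.19 in UT and by -0.35 in LPS. Of the 999 members, 306 were then still at the threshold or above; a shift of this size could bring none of them below 0.

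The ratio also moved with coverage. With the bins in 10 groups of equal size by mean coverage, from the lowest to the highest group the median centred ratio went from -0.19 to 0.16 in UT and from 0.09 to -0.19 in LPS. Members made up 1.88% of the lowest group, 4.41% of the last but one and 2.84% of the highest. Centring within these groups gave 1110 members.

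Near the threshold, the last members kept were chr9:77620001-77625000 with 0.62 in UT and 0.50 in LPS, chr5:28555001-28560000 with 0.64 and 0.50, and chr4:9110001-9115000 with 1.44 and 0.50. The first bins left out were chr16:35585001-35590000 at the start site of Slc49a4 with 0.73 and 0.50, chr12:100955001-100960000 in Ccdc88c with 0.50 and 0.88, and chr12:69730001-69735000 with 0.87 and 0.50. In each of these bins one treatment lay at the threshold and the other above it.

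The member with the highest smaller ratio lay in an intron of Hipk2, a nuclear kinase, at chr6:38800001-38805000. It had 1529 reads in p30 UT and 1402 after LPS, against 7421 in p42 UT and 5345 after LPS. Both p42 values lay far above both p30 values, at 4.01-fold in UT and 4.44-fold in LPS after centring. The next bin, chr15:76155001-76160000 in an intron of Spatc1, had 2564, 2534, 12236 and 8600 reads, or 3.95-fold in both treatments after centring. It was looped in all 4 lists to the promoters of Grina and Exosc4, with 30, 19, 65 and 53 contacts to Grina.

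The third was the start-site bin of Nfil3, a leucine zipper repressor needed for innate lymphoid cells. It had 908 reads in p30 UT and 783 after LPS, against 4138 in p42 UT and 3159 after LPS. The centred ratio was 1.91 in UT and 2.23 in LPS, the latter the highest of all members in LPS. Its bin held 6 matches of TTGCNNAA and 2 of TGANTCA, 1 of each in the window printed above. The bin had 3 loops in p30 UT and 1 after LPS, against 13 in p42 UT and 11 after LPS.

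Alas1, the first enzyme of haem synthesis in most tissues, held the fourth bin, chr9:106135001-106140000, with 1670 (UT) and 1496 (LPS) reads in p30 cells and 7983 (UT) and 4766 (LPS) in p42 cells. The fifth, chr13:13730001-13735000, lay 32 kb from the start site of Lyst, which encodes a regulator of lysosome and granule size, and had 1386, 1253, 6487 and 3732 reads. The intergenic bin 57 kb from Sp3 had 1884, 1686, 7240 and 4559 reads. In each of these 3 bins both p42 values lay above both p30 values, from 3.15-fold (the bin near Sp3 in LPS) to 3.95-fold (Alas1 in UT) after centring.

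Serpinb2, an inhibitor of plasminogen activators in activated macrophages, held a pair of adjacent bins. The bin chr1:107430001-107435000 had 3174 reads in p30 UT and 3294 after LPS, against 12243 in p42 UT and 8093 after LPS, and its neighbour chr1:107425001-107430000 had 4111, 4442, 15764 and 10553. Both looped to a further member 10 to 15 kb away, with 69, 66, 225 and 154 contacts for the nearer one.

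The bin in Trub2, an RNA pseudouridine synthase, had 2899 reads in p30 UT and 2280 after LPS, against 10619 in p42 UT and 6300 after LPS and was looped to the bin with the start sites of Trub2 and Coq4. The bin looped to Cd53, a leukocyte tetraspanin, had 1705, 1726, 6344 and 4331 reads, and its loop of 40 kb had 15, 16, 53 and 31 contacts. The bin chr1:65150001-65155000 was looped over 65 kb to Idh1, a metabolic enzyme mutated in myeloid leukaemia, with 19, 10, 53 and 28 contacts. The remaining 4 of the first 15 bins lay at the start site of Spatc1, 252 kb from Hlx, a homeobox factor, and 15 and 35 kb from Atg5lrt.

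The share of members at coding promoters was below that of all common peak bins, and the share between genes was above it. The start site of a coding gene lay in 85 members (8.51%, 95% Wilson interval 6.93 to 10.4) and in 17.6% of all common peak bins. With the start sites of any transcript of coding genes the shares were 20.1% (17.8 to 22.7) and 33.8%. Intergenic bins made up 16.5% of members (14.3 to 18.95) and 7.83% of all. Bodies of lncRNA genes made up 12.2% of members and 6.91% of all, coding introns 22.7% and 19.4%, bins with a coding exon 29.0% and 39.6%, and lncRNA start sites 11.01% and 8.70%. Of the 301 bins higher in p30, 11.6% held a coding start site and 11.96% were intergenic. Bins are not independent, so these shares were not tested against each other.

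Members had a mean GC content of 44.4%, against 46.7% over all common peak bins and 49.4% in the bins higher in p30. Motif counts follow GC content, so they were also compared within 5 groups of bins of equal size by GC content. TTGCNNAA occurred 2.58 times per member and 1.98 times per common peak bin, and 1.75 times in the bins higher in p30. Within these groups the members held 1.14 to 1.36 times as many. For TGTTGCAA the ratio within groups was 1.25 to 2.18 and for TGATGCAA 1.296 to 1.55. These ratios carry no interval and rest on few matches. The group with the highest GC content had 58 members, with 0.12 matches of TGTTGCAA and 0.14 of TGATGCAA per member.

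Without the GC groups the other motifs differed less. TGANTCA occurred 1.70 times per member and 1.51 times per common peak bin, with 1.06 to 1.16 times as many within the GC groups. AGATAA, a motif of the GATA factors, occurred 3.18 and 2.72 times, but within them the ratio was 0.97 to 1.16. GAGGAAGT (PU.1) occurred 0.394 and 0.368 times, TGTGGTTT (RUNX) 0.439 and 0.396 times, GGGNNTTTC (NF-kB) 0.697 and 0.718 times, and TGACGTCA (CRE) 0.042 and 0.047 times. Over all common peak bins 77.2% held TGANTCA, 90.7% AGATAA, 30.4% GAGGAAGT, 32.4% TGTGGTTT, 50.4% GGGNNTTTC and 4.50% TGACGTCA.

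**Figure D2:**
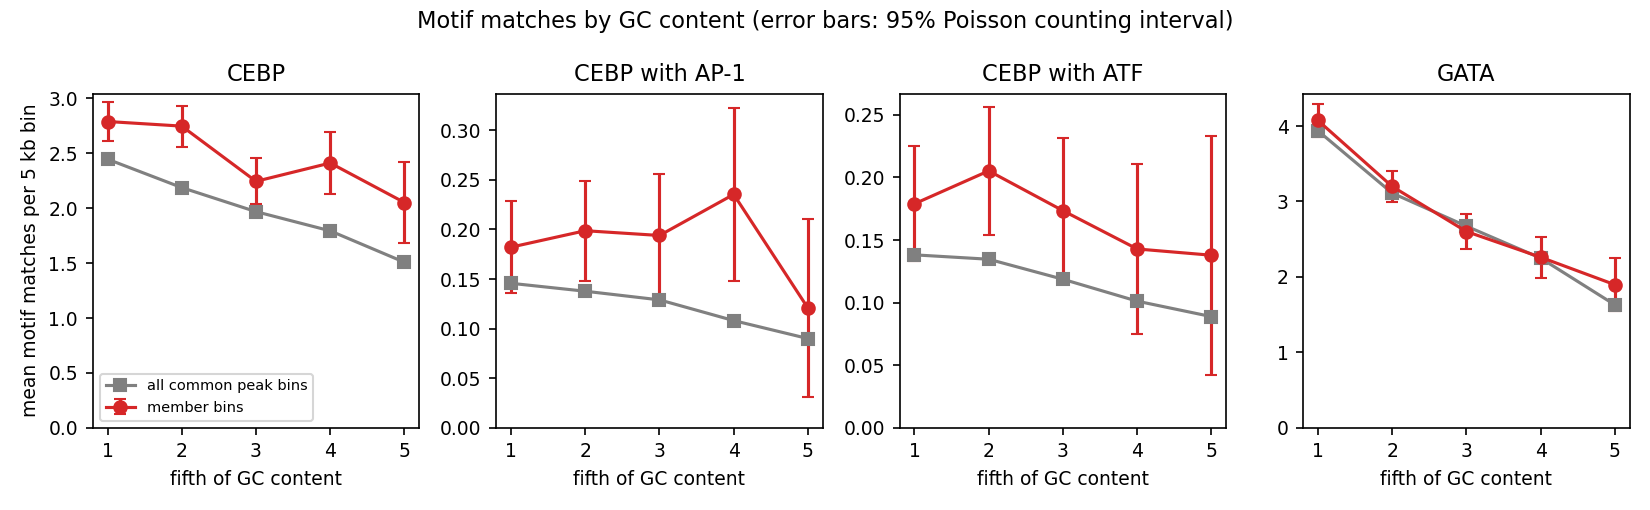
Mean number of motif matches per 5 kb bin in 5 groups of GC content, for members (red, with 95% Poisson counting intervals) and all common peak bins (grey). Group 1 has the lowest GC content; members lie above the grey line in all 5 groups for TTGCNNAA (panel CEBP), and near it in most for AGATAA (panel GATA).

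Promoters were counted apart from bins. Of the 88 promoters with their start site in a member, 9 held TTGCNNAA in the 250 bases before the start (10.2%, 5.47 to 18.3), against 7.81% of the 6224 promoters in common peak bins. TGATGCAA was found in 3 of 88 (3.41%, 1.17 to 9.55) and 0.594% of all. TGTTGCAA was found in 0 of 88, with a Wilson interval up to 4.18%, and in 0.402% of all. The start-site bin of C3 had 2405 reads in p30 UT and 2103 after LPS, against 4966 in p42 UT and 3624 after LPS. That of Hcar2 had 1936, 2803, 4201 and 4375 reads, and its promoter held 3 matches of TTGCNNAA.

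Members were clustered along the chromosomes. Of the 999 members, 548 (54.9%, 51.8 to 57.9) had a member in an adjacent bin. Of the 301 bins higher in p30, 98 (32.6%, 27.5 to 38.0) had another of their kind beside them. Of 1034 common peak bins next to a member, the 548 members named (53.0%) were themselves members, against 780 (3.13%) of 24944 common peak bins next to any other. With gaps of up to 1 bin they formed 580 runs, of which 354 were single bins, 128 were pairs and 98 held 3 or more bins and 389 members together. Adjacent bins of 5 kb can hold parts of one broad domain, so runs rather than bins count separate places.

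The ratio fell off with distance from members. Peak bins that were no members had a median centred ratio of 0.42 in UT and 0.43 in LPS at 5 kb, 0.31 and 0.31 at 10 kb, and 0.02 and 0.08 at 55 to 100 kb. Beyond 1000 kb it was -0.04 in both. Bins without the peak flag showed 0.54 and 0.33 at 5 kb, over 24 bins. Members made up 6.57% of the common peak bins of chromosome 13, 5.82% of chromosome 10 and 5.01% of chromosome 1, and 1.65% of chromosome 11. On chromosome 1 the median over all common peak bins was 0.08 in UT and 0.09 in LPS.

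**Figure D3:**
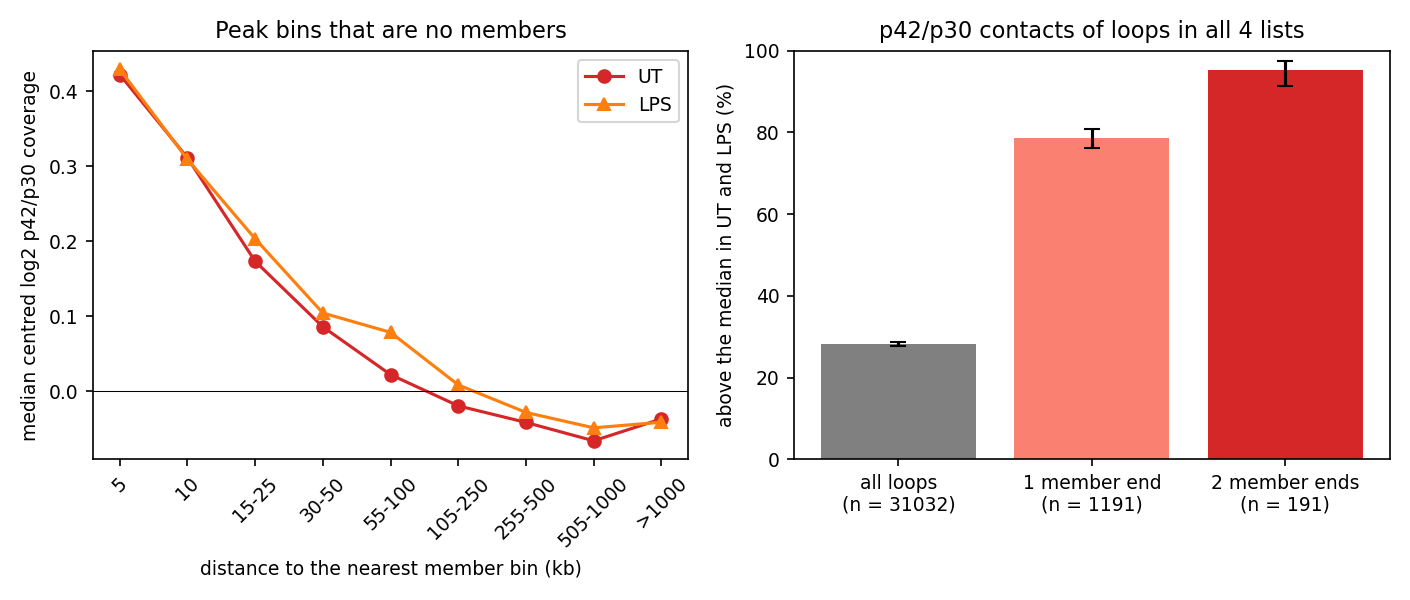
Left, median centred log2 p42/p30 coverage of peak bins that are no members, by distance to the nearest member in kb; right, share of loops in all 4 lists whose p42/p30 contact ratio lies above the median of all loops in UT and LPS, with 95% Wilson intervals. The ratio goes from above 0.4 at 5 kb to about 0 beyond 100 kb, and the share is 28.3% over all loops, 78.7% with 1 member end and 95.3% with 2.

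The longest run, of 10 members over 50 kb at chr18:36820001-36870000, held the start sites of Cd14, the LPS co-receptor, Tmco6 and E230025N22Rik. The start-site bin of Cd14 had 2982 reads in p30 UT and 4463 after LPS, against 10900 in p42 UT and 7271 after LPS. All p42 values lay above all p30 values, and the ratio after centring was 3.02-fold in UT and 1.90-fold in LPS. Cd14 was looped to 3 other members of the run, with 98, 165, 407 and 312 contacts in all. Its neighbour Tmco6 was looped to 7 members, the most of any coding gene, with 205, 291, 676 and 470 contacts. Common peak bins at 25 to 250 kb from the run had medians of 0.17 in UT and -0.0022 in LPS.

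A run of 9 members at chr13:13690001-13750000 lay before Lyst, with a mean coverage per bin of 2071, 1873, 5651 and 3222 reads. A bin of it looped to the Lyst promoter over 60 kb with 16, 13, 50 and 26 contacts. A run of 7 members at chr9:123735001-123770000 held Ccr1, a receptor for inflammatory CC chemokines, with a mean of 8777, 9039, 21894 and 12227 reads. This run had the highest coverage of the 10 longest, and its bins looped to the Ccr1 promoter.

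The other 7 runs had 6 members each. The run at Alas1 (chr9:106115001-106150000) had a mean of 1835, 1582, 4864 and 3185 reads. The run at chr2:167535001-167570000 lay downstream of Cebpb, a CEBP factor induced by inflammation, and had 3377, 3595, 7827 and 5662 reads. The median centred ratio of these runs was 0.88 in UT and 1.02 in LPS at Alas1 and 0.81 and 0.78 at Cebpb, while common peak bins at 25 to 250 kb from them had medians between -0.11 and 0.17. Flanks were higher at other runs, with medians of 0.48 in UT and 0.18 in LPS at Ccr1, 0.39 and 0.09 at Reep3, 0.29 and 0.20 near Myb, and 0.71 and 0.52 over the 2 flanking bins at Lyst.

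The start-site bin of Cebpb was no member, with ratios of 0.47 in UT and 0.61 in LPS, but it was looped in all 4 lists to a member 85 kb downstream with 14, 10, 21 and 30 contacts. A run in Ahi1, 92 kb from the start site of Myb, a regulator of progenitor proliferation, had 3311, 2964, 7777 and 4357 reads. Further runs lay in Tec, a tyrosine kinase gene, in Reep3 and 45 kb from Mdm1. The Reep3 run was looped to the promoters of Reep3 and Jmjd1c.

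**Figure D4:**
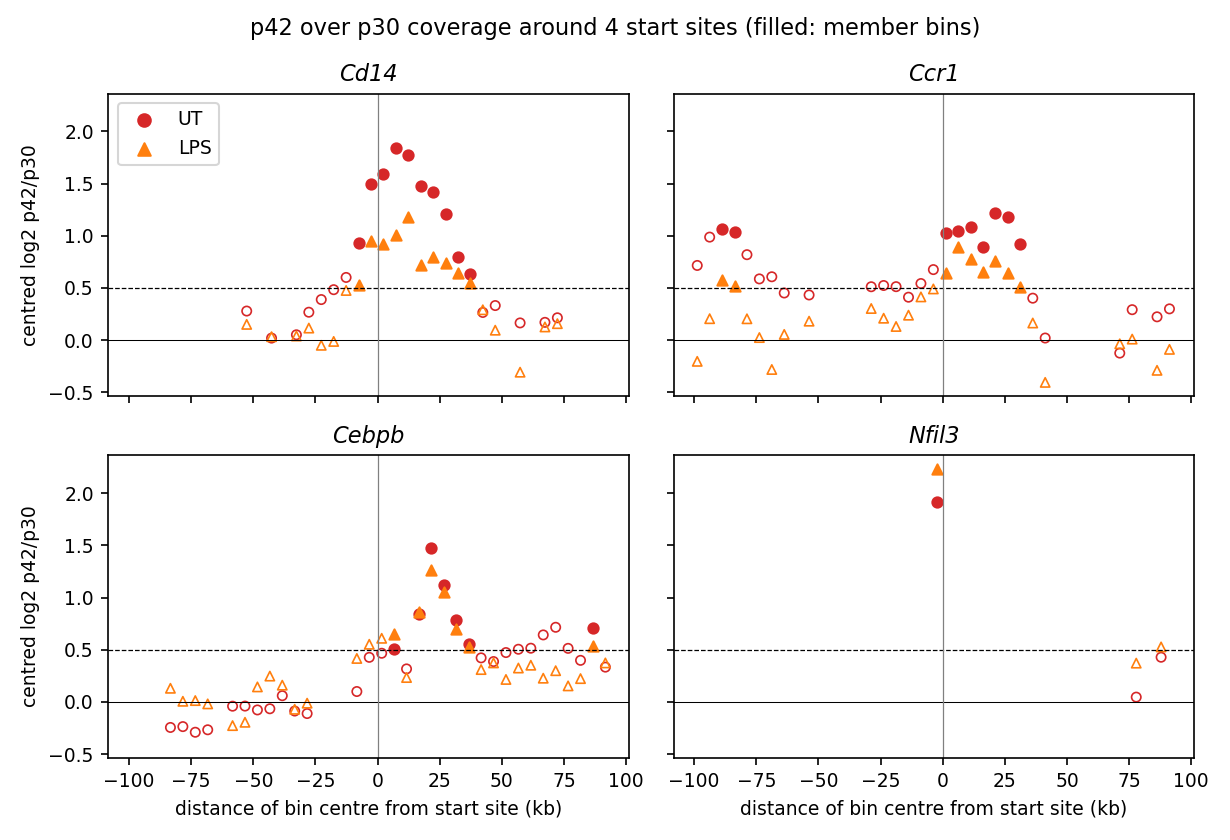
Centred log2 p42/p30 coverage of common peak bins within 100 kb of the start sites of Cd14, Ccr1, Cebpb and Nfil3, by distance in the direction of transcription; circles are UT, triangles LPS, filled symbols members. Members form broad domains at Cd14 and Ccr1 and downstream of Cebpb. The Nfil3 start-site bin lies at 1.91 and 2.23. The next common peak bin in its panel is 77.9 kb from the start site, so the extent of the difference there cannot be read.

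Of the 6224 coding genes with their start site in a common peak bin, 88 (1.41%) had it in a member. Of the 5039 with a loop in all 4 lists, 215 (4.27%) were looped to a member, and 274 genes met either condition. Of the members, 302 (30.2%, 27.5 to 33.1) held a coding start site or were looped to one in all 4 lists, against 41.1% of all common peak bins. Gene lists of 411 genes were read against these shares, and 19 of their genes had a start site in a member. Scaled by modelled contacts, 6 of these genes met the rule, which were Nfil3, Cebpe, Trem3, Irak3, Cd14 and Acod1, and the others described below fell under the threshold. Counts per list were small, and nothing is claimed for a list from them.

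Among LPS sensors and inflammatory receptors 4 of 37 genes had their start site in a member, Cd14, Tlr2, Irak3 and Ccr1, and 6 of 32 were looped to one. Tlr2, the receptor for bacterial lipoproteins, had 1885 reads in p30 UT and 2299 after LPS, against 3445 in p42 UT and 2978 after LPS. Irak3, which restrains Toll-like receptor signalling, had 1213, 1537, 2611 and 2676 reads. Ccr1 had 3417, 3782, 8423 and 5088 reads. In these 3 genes both p42 values exceeded both p30 values. After centring, the ratios were 1.51-fold (Tlr2) to 2.04-fold (Ccr1) in UT and 1.51-fold (Tlr2) to 2.03-fold (Irak3) in LPS. Ccr2, Ifngr1, Il17ra and Cxcr4 were looped to members without having their start site in one.

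Among cytokines and chemokines the figures were 3 of 18 and 4 of 15. The start-site bin of Cxcl3, a neutrophil attractant, had 1016 reads in p30 UT and 989 after LPS, against 2146 in p42 UT and 1508 after LPS. That of Ccl4, an inflammatory chemokine, had 4527, 5855, 9925 and 7605 reads, and that of Ccl6 3614, 3643, 6573 and 4697. Ccl3 was looped to the Ccl4 bin with 94, 117, 219 and 165 contacts. Ccl9 was looped to 4 members on its upstream side, among them the Ccl6 bin, with 124, 127, 254 and 172 contacts. Lif was looped to a member 30 kb upstream with 24, 32, 52 and 39 contacts.

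Among AP-1, CEBP and ATF factors the figures were 2 of 30 and 3 of 25. Nfil3 is given above. Cebpe, the CEBP factor of late granulocyte maturation, had 4543 reads in p30 UT and 3022 after LPS, against 12582 in p42 UT and 6268 after LPS, or 2.29-fold and 2.42-fold after centring. It was lower with LPS in both isoforms. Bach1, a repressor that dimerises with small MAF proteins, was looped to 5 members 80 to 115 kb upstream with 89, 107, 135 and 134 contacts, although its own start-site bin had ratios of 0.17 and -0.10. Fos, an AP-1 subunit, was looped to 2 members 85 to 90 kb upstream with 37, 39, 70 and 49 contacts.

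Among NF-kB and feedback regulators the figures were 2 of 37 and 1 of 34. Acod1, which makes itaconate in activated macrophages, had 1249 reads in p30 UT and 2014 after LPS, against 2167 in p42 UT and 3277 after LPS. Besides Irak3, it was the one gene of the 19 where p42 LPS was the highest value. Dusp6, a phosphatase of ERK, was looped to 3 members 15 to 30 kb upstream with 81, 83, 135 and 106 contacts.

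Among granulocyte and monocyte genes the figures were 2 of 28 and 5 of 26. Hp, the haemoglobin scavenger haptoglobin, had 2330 reads in p30 UT and 4141 after LPS, against 7410 in p42 UT and 6096 after LPS. Trem3, a receptor of myeloid cells, had 2507, 2138, 5891 and 4181 reads. Mpo, the peroxidase of primary granules, was looped to 2 members 10 to 15 kb upstream in Tspoap1 with 189, 113, 385 and 169 contacts. Its own bin had ratios of 0.86 in UT and 0.45 in LPS and missed the threshold in LPS. Cd33, Alox5ap and Fcgr3 were each looped to 1 member.

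Among stem and progenitor regulators the figures were 4 of 26 and 2 of 20. In this list 2 further genes, Zfpm1 and Ly6a, had their start site in a bin higher in p30, as had 35 (0.562%) of all 6224 coding genes. Zfpm1, a cofactor of GATA factors, had centred ratios of -0.53 in UT and -0.66 in LPS, and Ly6a, which encodes the stem cell antigen Sca-1, -0.53 and -0.72. Erg, an ETS factor of stem cells, had 5607 reads in p30 UT and 4910 after LPS, against 11585 in p42 UT and 6905 after LPS. Lmo2, a bridging protein of the same network, had 2981, 2510, 5927 and 3307 reads. Ikzf1, a lymphoid and progenitor zinc finger factor, had a ratio after centring of 1.53-fold in UT and 1.46-fold in LPS, and Cd93 of 1.52-fold and 1.46-fold. Fli1 was looped to 2 members within its own gene.

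In the other lists, 1 of 16 ATF4-type stress genes had its start site in a member. This was Ppp1r15b, a phosphatase subunit that reverses the stress block of translation, with 7128 (UT) and 8401 (LPS) reads in p30 cells and 16275 (UT) and 11642 (LPS) in p42 cells. Of 12 erythroid and megakaryocyte genes it was Pf4, a platelet chemokine next to Cxcl3, with 1.69-fold and 1.44-fold after centring. Of 3 lymphoid and 5 mast cell, basophil and eosinophil genes there were 0. Neighbours such as Pf4 and Cxcl3, or Ccl4 and Ccl6, share a chromosomal region and are not separate observations.

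**Figure D5:**
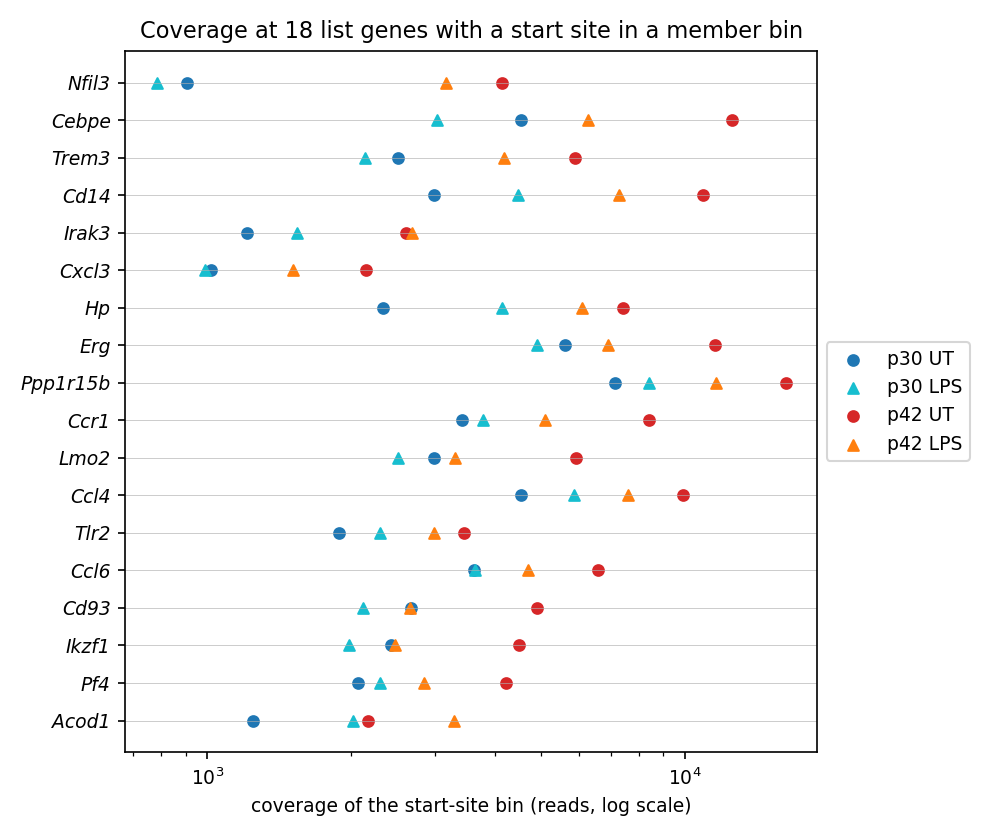
Coverage in reads (log scale) of the start-site bins of 18 of the 19 list genes whose start site lies in a member, in each of the 4 lists. Before centring, p42 UT is the highest value in all but Irak3 and Acod1, and the p42 LPS value of Cd93 lies between both p30 values.

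Apart from the lists, the genes looped to most members included Tmco6 (7), then Bach1, Fcrlb, Ccr1 and Fcgr2b (5 each) and E230025N22Rik, Ccl9, Fcrla and Gm45717 (4 each). Fcgr2b, the inhibitory receptor for IgG, had 4310 reads in p30 UT and 4845 after LPS, against 9758 in p42 UT and 7392 after LPS at its start site and 150, 171, 311 and 268 contacts with members. Fcrlb and Fcrla lie beside it and looped to the same region. Gm45717 was looped to members at Ifitm3 and Ifitm6, genes of interferon-induced membrane proteins.

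Of 31032 loops found in all 4 lists, 1382 had a member at 1 end (1191) or both (191). The centred log2 ratio of p42 to p30 contacts had a median of 0.49 in UT and 0.46 in LPS with 1 member end, and of 0.84 and 0.75 with 2. With at least 1 member end, 81.0% of loops (78.8 to 83.0) lay above the median of all loops in both treatments, against 28.3% of all. Both ratios reached 0.5 in 31.5% of them, and in 62.3% of those with 2 member ends, against 3.52% of all loops. Contacts and coverage come from the same reads, so these values describe the choice of members and give it no support.

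Set against the contacts that the caller expected from coverage and distance, the log2 ratio of p42 to p30 was 0.38 in UT and -0.0015 in LPS for loops with a member end, and 0.25 and -0.12 for all loops. Of 1544 loop partners of members that were common peak bins, 382 (24.7%, 22.7 to 26.95) were members, against 2.68% over all partners. At 20 kb or more the share was 19.1% against 2.62%, and at 100 kb or more 14.8% (10.5 to 20.6) against 2.33%. A coding start site lay in 19.04% of the partners (17.2 to 21.1) and in 22.97% of the partners of all bins.

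Listed loops with a member end numbered 2875 (3.57%) in untreated p30 cells and 3349 (3.54%) after LPS, against 9130 (5.77%) in untreated p42 cells and 5264 (6.70%) after LPS. A member had a median of 2, 3, 9 and 5 loops in this order, and a common peak bin 3, 4, 6 and 3. Of 11842 loops shared by the p42 lists and absent from those of p30, 1509 (12.7%, 12.1 to 13.4) had a member end. Of 3381 shared by the p30 lists and absent from those of p42, 45 (1.33%) did. Over the union of all lists the share was 4.97%, and over loops in all 4 lists 4.45%. Whether a loop is listed depends on the reads that also give the coverage, so these shares follow in part from the choice of members.

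The LPS change of members comes from the same 4 coverage values that chose them, and it is given as a description. Over all common peak bins the log2 ratio of LPS to UT coverage had a median of -0.11 in p30 and -0.60 in p42. Centring took these medians off, so a gain or loss below is relative to them. The centred ratio had a median of 0.02 in p30 and -0.06 in p42 over the members, and 58.0% of members (54.9 to 61.0) lay below 0 in p42. Of the bins higher in p30, 69.4% (64.01 to 74.4) lay below 0 in p42 and 58.8% in p30. Where the rule was scaled by modelled contacts it kept 331 bins, while the LPS change itself stayed centred on its median. Of these bins 45.02% (39.7 to 50.4) lay below 0 in p42 and 54.1% in p30. For the main members the shares were 58.0% and 47.9%, on the other side of 50.0% in each isoform. The LPS change was not rescaled, so these shares differ only in which bins were kept. A gain of 0.5 or more with LPS was found in 61 members in p30 (6.11%) and 36 in p42 (3.60%), against 4.01% and 2.35% of all common peak bins. A loss of that size was found in 22 members in p30 (2.20%) and 48 in p42 (4.80%), against 1.61% and 2.31% of all. On the centred scale Acod1 gained 0.80 in p30 and 1.20 in p42, Hp gained 0.94 and 0.32, and Cd14 0.69 and 0.02. Before centring, reads in p42 fell with LPS from 7410 to 6096 at Hp and from 10900 to 7271 at Cd14. A member with a higher ratio in UT than in LPS shows a smaller change in p42 by construction.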

How the data were processed

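H3K27ac HiChIP libraries of 4 groups, 2 replicates each, were mapped by the authors to mm39 with BWA 0.7.17 (submitters' processing notes), deduplicated with pairtools and called with FitHiChIP in bins of 5 kb at a q-value under 0.01. The authors deposited 1 list per group with 26 columns; how replicates were pooled was not stated, so depth per library is unknown. Deposited contacts and coverage are raw counts of ligation products and reads. The deposited expected count is the caller's estimate from distance and coverage. The deposited contact probability is a fraction of the modelled contacts. The deposited coverage bias is a ratio to the mean coverage of peak or other bins. The deposited q-value was used for ordering and filtering alone, and the p-value was not used. Flags mark peaks, and distances are in base pairs.

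Lists were read with Python 3.11.15, pandas 2.3.3, numpy 2.4.6, scipy 1.17.1 and pysam 0.24.0. A log2 ratio of coverage has the Poisson error of both counts, and shares have 95% Wilson intervals. Genes were those of GENCODE M39 with the start of the canonical transcript, of which 21751 were coding; 412 of 414 gene list entries were found. Motifs of 9 kinds were searched on both strands of GRCm39. The script for the rule was tested on simulated coverage. Named are the first 15 bins by the smaller ratio, the 10 longest runs, list genes with a start site in a member, the 10 genes with most member partners and the bins beside the threshold; C3, Hcar2 and genes named in passing were chosen after their values were seen, and a few items that this rule names are not reported here. The members and lists were chosen with earlier results of these data known. Peak bins absent from a list could not be members: 9618 were in both p42 lists but not in both p30 lists, and 5771 the reverse.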

Additional observations from a re-analysis of the deposited data

Results flagged for a closer look

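A few named members had LPS changes of opposite sign in the isoforms, each of at least 0.1 on the centred log2 scale, with 1 list per group and no test of the difference. At the start-site bin of Nfil3, chr13:53135001-53140000, p30 changed by -0.10 and p42 by 0.21, which differ by 0.316. At Trem3 the values were -0.12 and 0.11, which differ by 0.226. These opposite signs arose with the centring, as reads at both start-site bins fell with LPS in both isoforms. In p42 they went from 4138 to 3159 at Nfil3 and from 5891 to 4181 at Trem3. In the other direction they were 0.26 (p30) and -0.12 (p42) at Ccr1 (-0.382) and 0.17 and -0.16 over the run at chr9:123735001-123770000 (-0.331), which includes the Ccr1 bin. The member chr4:9110001-9115000 beside the threshold had 0.43 in p30 and -0.51 in p42. At these places reads rose with LPS in p30 and fell in p42 before centring as well. For a single bin the difference comes from the same 4 values as the LPS and UT ratios by which members were chosen.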

How the results depend on the processing

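No paired analysis was possible because the lists pool the replicates and carry no replicate numbers, and leaving out a replicate was not possible either. Lower or higher thresholds and another scaling changed how many bins were members. The main values were 999 members, 8.51% with a coding start site, 54.9% with an adjacent member, 24.7% of partners that were members, 81.0% of loops above the median in both treatments, a share of listed loops 1.61 times (UT) and 1.89 times (LPS) as high in p42 as in p30, 47.9% (p30) and 58.0% (p42) of members below 0 with LPS, 2.58 CEBP matches per bin and 19 list genes. With a threshold of 0.3 there were 2445 members and 37 list genes, and the promoter share was 10.6%, adjacency 60.9%, partners 32.0%, loops 70.4%, listed loops 1.43 and 1.63 times, and CEBP matches 2.48. With a threshold of 1 there were 112 members and 2 list genes, adjacency was 39.3%, partners 3.15%, loops 92.9%, listed loops 2.25 and 2.62 times, the LPS share in p30 52.7% and CEBP matches 2.70. Scaled by modelled contacts there were 331 members and 6 list genes, adjacency was 43.2%, partners 11.7% and loops 86.9%. Listed loops were then 1.81 and 2.30 times, and CEBP matches 2.76. The LPS shares over these 331 bins were 54.1% in p30 and 45.02% in p42, with the LPS change itself still centred on its median. For this smaller set of bins the share in p42 lay on the other side of 50.0%, its value over all common peak bins. Start sites of any transcript gave a promoter share of 20.1%, against 33.8% of all common peak bins. A q-value under 0.001 gave 84.1% of loops and listed loops of 1.85 and 2.07 times, loops of 20 kb or more gave 19.1% of partners and 73.2% of loops, and lists of equal size 1.86 times in UT. A gap of up to 1 bin gave 64.6% adjacency and the mean over 5 groups of GC content 2.45 matches. Settings added after the data were seen used the rule in UT alone or in LPS alone. In UT alone there were 2381 members and 45 list genes, with 15.2% promoters, 59.4% adjacency, 35.0% of partners, 64.7% of loops, listed loops of 1.48 and 1.45 times and LPS shares of 29.0% and 70.9%. In LPS alone there were 1631 members, with 58.3% adjacency, 27.1% of partners, 73.3% of loops, listed loops of 1.44 times in UT, LPS shares of 59.0% and 42.5% and 2.45 matches. Centring within 10 groups of coverage, autosomes, and mean coverage of 1000 or more kept all of these within the counting interval or within 1.5 times. For the 33 named bins and genes the lowest ratio under these scalings was 0.18; all were chosen at 0.5 or more, so that no scaling tried could turn their sign. Why settings differ was not tested, apart from the number of bins that each keeps. Depth per library is unknown, and low bins had counting errors of up to 0.22.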
